A study of Homo sapiens with 10 samples.

Results

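A set of 5 calcitriol-responsive genes (WLS, ERVW-1, EFL1, STEAP4 and KRTAP3-1) was followed in SKBR3 cells, an established HER2-amplified human breast carcinoma line, through 50 h of hormone and under 2 siRNAs. The 5 genes were chosen by their array signals, which were higher with calcitriol than without it in these same samples, and none belongs to a transporter, keratin or peptidase family. All 9 probe sets that carry only one of these symbols were used, out of 41097 single-symbol probe sets for 19775 genes on the array. The D3-against-untreated differences below therefore describe how the genes were picked and were not tested. The step from 8 to 50 h among the D3 arrays rests on some of the same values, since a gene may owe its choice to its 50 h level, and it is given as a description too. The tests concern the differences between the siRNAs, which the rule for the choice did not name. Where a test asks whether the D3 response differs between the siRNAs, it uses the same D3 arrays as the choice. Its independence of the choice was not shown.

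The study asked how vitamin D3 and a mutant p53 act together on gene expression. All cells carried the line's mutant p53 and grew in medium with charcoal-stripped serum, which is depleted of steroids. The control cells received an siRNA against LacZ, a bacterial gene (LacZi), and the others an siRNA against p53 (p53i). D3, the active hormone 1α,25(OH)2D3 or calcitriol, was then added at 100 nM for 8, 20 or 50 h; the sample text puts the addition at 24 h and the series text at 48 h after transfection. Each siRNA had 2 untreated arrays, labelled as biological replicates, and 1 array at each D3 time, which makes 10 arrays in 8 groups. Nothing in the labels says that the D3 arrays came from separate cultures. A p-value here therefore speaks only of how far these samples scatter around the fitted model, and that scatter may be technical. No untreated array is labelled as harvested alongside the later D3 times, so the effect of the hormone and that of longer culture cannot be told apart. The transcript that the p53 siRNA targets was not analysed here, and the knock-down was not checked.

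Calcitriol acts through the vitamin D receptor, a nuclear receptor that binds DNA as a partner of RXR and turns on genes such as CYP24A1, which encodes the enzyme that degrades the hormone. The 5 genes do unlike jobs. WLS (Wntless) escorts lipid-modified Wnt ligands to the cell surface, and ERVW-1 encodes syncytin-1, a retroviral envelope protein that fuses trophoblast cells in the placenta. EFL1 is a GTPase that works with SBDS to release EIF6 from the maturing large ribosomal subunit, STEAP4 is a metalloreductase that reduces iron and copper at membranes, and KRTAP3-1 is a keratin-associated protein of the hair shaft.

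The arrays were alike in level. Median signals ran from 35.7 to 44.3 over the 10 arrays. The luminal and HER2 markers fixed for the line were high, with ERBB2 between 12690 and 16178 in untreated and between 13764 and 19099 in D3 arrays, while the epithelial cadherin gene CDH1 stayed at or below 23.9. Median signals of the fibroblast (16.2 to 32.5), endothelial (10.1 to 22.5), leukocyte (11.5 to 41.0), adipocyte (5.81 to 35.8) and trophoblast (11.0 to 42.4) marker lists lay near or below the filter on low values at 35.4. The ratio of 3' to 5' ACTB signal, a measure of RNA integrity or of labelling length, had a median of 4.60 (range 3.79 to 5.05, n = 5) in LacZi and 6.12 (range 4.39 to 8.72, n = 5) in p53i arrays. CYP24A1 answered the hormone on every D3 array. Its signals were 34.9 and 40.0 in untreated LacZi cells and 5489, 5039 and 6476 at 8, 20 and 50 h, and 34.5 and 23.7 and then 4824, 4502 and 4234 in p53i cells.

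The sequences just upstream of the transcription starts are shown for reference. Any link between them and the time at which a gene rose was not tested. They are from RefSeq (GRCh38.p14), written 5' to 3' on the gene's strand, and end at the base before the start. WLS (gene at chr1:68098459-68232546, minus strand) is shown at chr1:68232547-68232796, EFL1 (chr15:82130233-82262734, minus strand) at chr15:82262735-82262817, STEAP4 (chr7:88270892-88306894, minus strand) at chr7:88306895-88307144 and KRTAP3-1 (chr17:41008521-41009128, minus strand) at chr17:41009129-41009378. Capitals mark hexamers of the kind nuclear receptors bind in STEAP4 and a TATA-type motif in KRTAP3-1. ERVW-1 is left out, because the table's window for it lies inside the span given for the gene. The EFL1 stretch is short because the next gene, SAXO2, begins 83 bases away.
WLS: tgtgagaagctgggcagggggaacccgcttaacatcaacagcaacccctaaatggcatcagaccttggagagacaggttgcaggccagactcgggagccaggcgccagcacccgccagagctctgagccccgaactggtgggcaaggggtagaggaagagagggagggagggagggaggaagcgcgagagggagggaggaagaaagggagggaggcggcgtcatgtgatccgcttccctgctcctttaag
EFL1: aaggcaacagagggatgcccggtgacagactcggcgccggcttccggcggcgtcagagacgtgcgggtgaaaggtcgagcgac
STEAP4: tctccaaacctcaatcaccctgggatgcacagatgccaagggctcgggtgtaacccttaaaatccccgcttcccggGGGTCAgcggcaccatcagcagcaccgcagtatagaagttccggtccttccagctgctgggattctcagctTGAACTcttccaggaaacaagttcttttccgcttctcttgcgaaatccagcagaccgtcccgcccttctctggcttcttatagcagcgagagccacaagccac
KRTAP3-1: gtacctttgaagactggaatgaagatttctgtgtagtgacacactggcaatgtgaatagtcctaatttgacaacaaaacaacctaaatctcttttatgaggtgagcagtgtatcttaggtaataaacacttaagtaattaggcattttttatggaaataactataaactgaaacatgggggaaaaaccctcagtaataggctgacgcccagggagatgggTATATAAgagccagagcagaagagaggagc
Both strands were searched for 4 hexamers that serve as half-sites of the vitamin D receptor. The search covered 250 bases before the WLS, STEAP4 and KRTAP3-1 starts and only the 83 bases shown for EFL1. The hexamers were AGGTCA with its G-initial form GGGTCA, and the T-containing form AGTTCA with its G-initial form GGTTCA. STEAP4 held the G-initial GGGTCA form from 174 to 169 bases before its start, and AGTTCA on the opposite strand (read as TGAACT above) from 103 to 98 bases before it. None was found before WLS, EFL1 or KRTAP3-1. At least 1 of the 4 hexamers occurred in 33.8% of all 35116 RefSeq windows of 250 bases, GGGTCA in 12.1% and AGTTCA in 8.8%. These windows are longer than the EFL1 stretch. None of the 4 stretches searched held 2 half-sites as a direct repeat with 3 bases between them, which 0.0655% of all 250-base windows did. KRTAP3-1 held TATATAA from 30 to 24 bases before its start, a motif found in 2.42% of windows. Base composition differed between EFL1 and KRTAP3-1, while WLS and STEAP4 lay near the median CpG count of all windows. The 250 bases before the EFL1 start held 22 CpG dinucleotides at 64.4% GC and those before KRTAP3-1 held 1 at 38.8% GC, against 11 for STEAP4, 10 for WLS and medians of 11 and 58% over all windows. The 250 bases counted for EFL1 run past the 83 shown into SAXO2, and the STEAP4 window overlaps the annotated gene LOC124901692. The motif matches and base counts describe letters in a window and say nothing of what binds there.

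EFL1 was the early member. Its signal (probe set 218973_at) was 322 and 362 in untreated LacZi cells and 815, 643 and 659 at 8, 20 and 50 h, and 425 and 399 and then 703, 566 and 683 in p53i cells. The lowest D3 array lay above the highest untreated array, and 8 h was the highest of the 3 times with both siRNAs. On the log2(signal + 16) scale used throughout, the level at 8 h stood 1.22 above the mean of the untreated pair in LacZi and 0.75 above it in p53i cells, with untreated duplicates 0.16 and 0.09 apart. The 8 h rise thus came to 133% and 106% of the rise at 50 h. CYP24A1 was the same in this respect, with 96.6% and 103% of its 50 h rise present at 8 h.

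WLS climbed step by step. Its brightest probe set (221958_s_at) read 43.4 and 45.9 in untreated LacZi cells and 128, 223 and 444 at 8, 20 and 50 h. In p53i cells it read 60.6 and 54.6 untreated and then 84.6, 123 and 217. Every D3 array lay above every untreated array, and the LacZi array was the higher at each D3 time although it was the lower of the siRNAs without hormone. The rises over untreated at 8, 20 and 50 h were 1.25, 1.98 and 2.92 in LacZi and 0.45, 0.92 and 1.66 in p53i cells, so that 42.7% and 27.2% of the 50 h rise was present at 8 h.

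ERVW-1 followed the same path. The gene lies at chr7:92468380-92477946 on the minus strand, and its brighter probe set (1555299_s_at) read 35.6 and 62.2 in untreated LacZi cells and 139, 316 and 720 at 8, 20 and 50 h. In p53i cells the signals were 49.5 and 48.9 and then 63.9, 149 and 251. The lowest D3 array, p53i at 8 h, stood only just above the highest untreated array. The rises were 1.29, 2.38 and 3.53 in LacZi and 0.29, 1.34 and 2.03 in p53i cells, and the 8 h share of the 50 h rise was 36.5% and 14.4%. The untreated duplicates were 0.60 apart on this scale in LacZi and 0.01 apart in p53i cells, so the p53i rise of 0.29 at 8 h is wider than the spread of its own pair and narrower than that of the other.

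STEAP4 was mostly a later riser. Its bright probe set (225987_at) read 642 and 587 in untreated LacZi cells and 682, 1158 and 1813 at 8, 20 and 50 h, and 504 and 350 and then 524, 753 and 1239 in p53i cells. The 8 h arrays lay just above their own untreated pair, and the p53i array at 8 h lay below both untreated LacZi arrays. The rises were 0.15, 0.90 and 1.54 in LacZi and 0.31, 0.82 and 1.52 in p53i cells. Only 9.66% and 20.3% of the 50 h rise was present at 8 h, against untreated duplicates 0.13 and 0.50 apart, while 58.4% and 53.7% was present at 20 h.

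KRTAP3-1 was the last. Its probe set (233537_at) read 21.4 and 34.8 in untreated LacZi cells and 30.1, 49.2 and 415 at 8, 20 and 50 h, and 9.69 and 8.26 and then 11.1, 26.3 and 126 in p53i cells. At 8 h the signal lay within the untreated pair in LacZi cells, and at 50 h it was far above every other array with both siRNAs. The rises were 0.08, 0.58 and 3.31 in LacZi and 0.12, 0.76 and 2.51 in p53i cells, with 2.47% and 4.71% of the 50 h rise present at 8 h and 17.6% and 30.3% at 20 h. Most of its signals before 50 h lay below the filter of 35.4, and the probe set passed that filter only through its 50 h arrays.

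**Figure D1:**
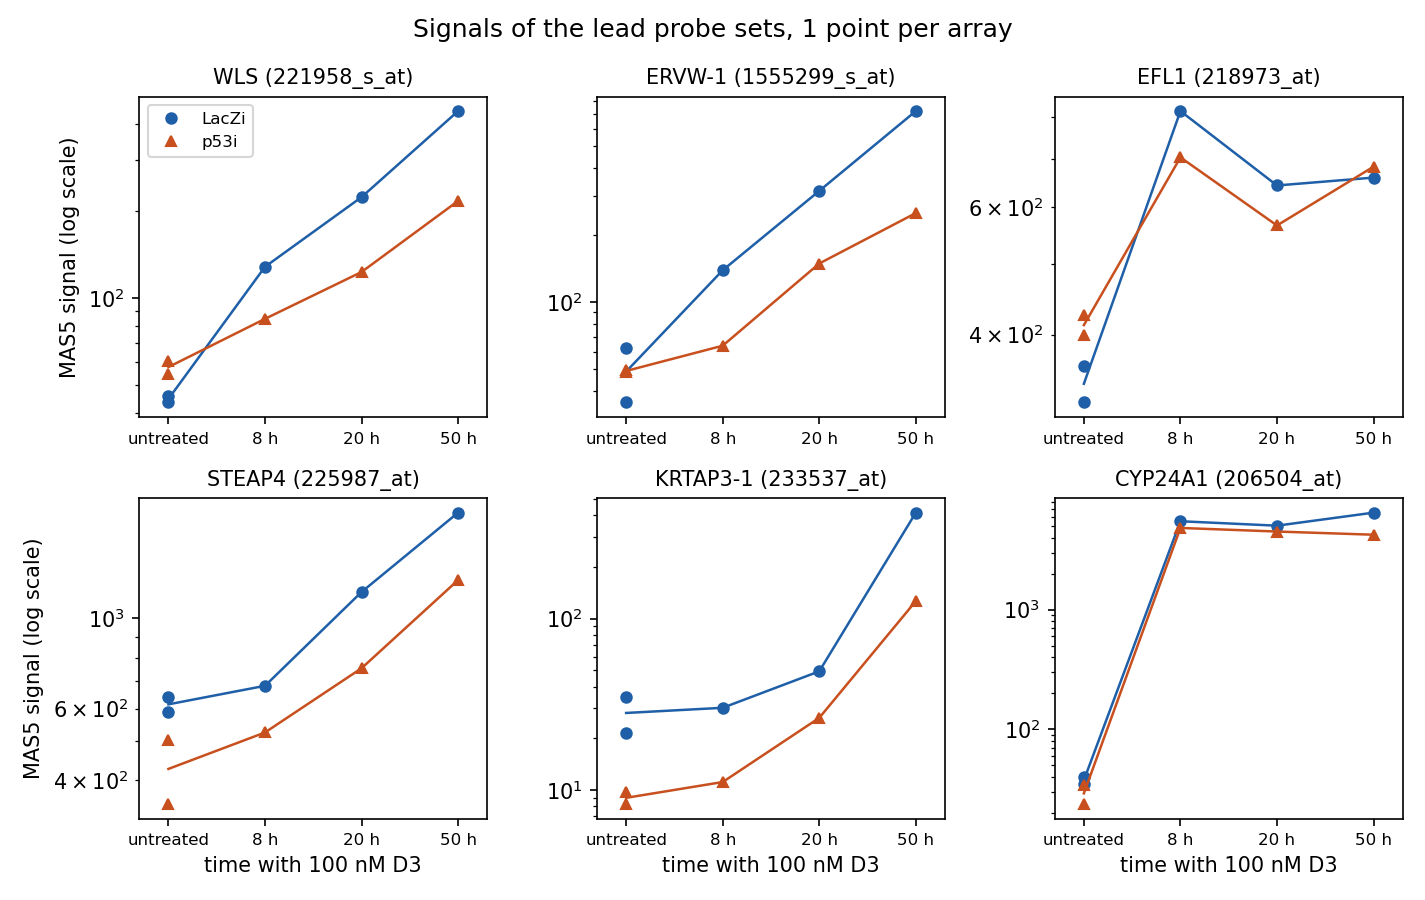
MAS5 signal (log axis) of the brightest probe set of each gene and of CYP24A1 against time with 100 nM D3, 1 point per array, circles for LacZi and triangles for p53i; lines start at the mean of the 2 untreated arrays. EFL1 and CYP24A1 are near their highest at 8 h, WLS and ERVW-1 climb at each step, STEAP4 climbs after 8 h, and KRTAP3-1 reaches 415 and 126 at 50 h from 49.2 and 26.3 at 20 h.

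**Figure D2:**
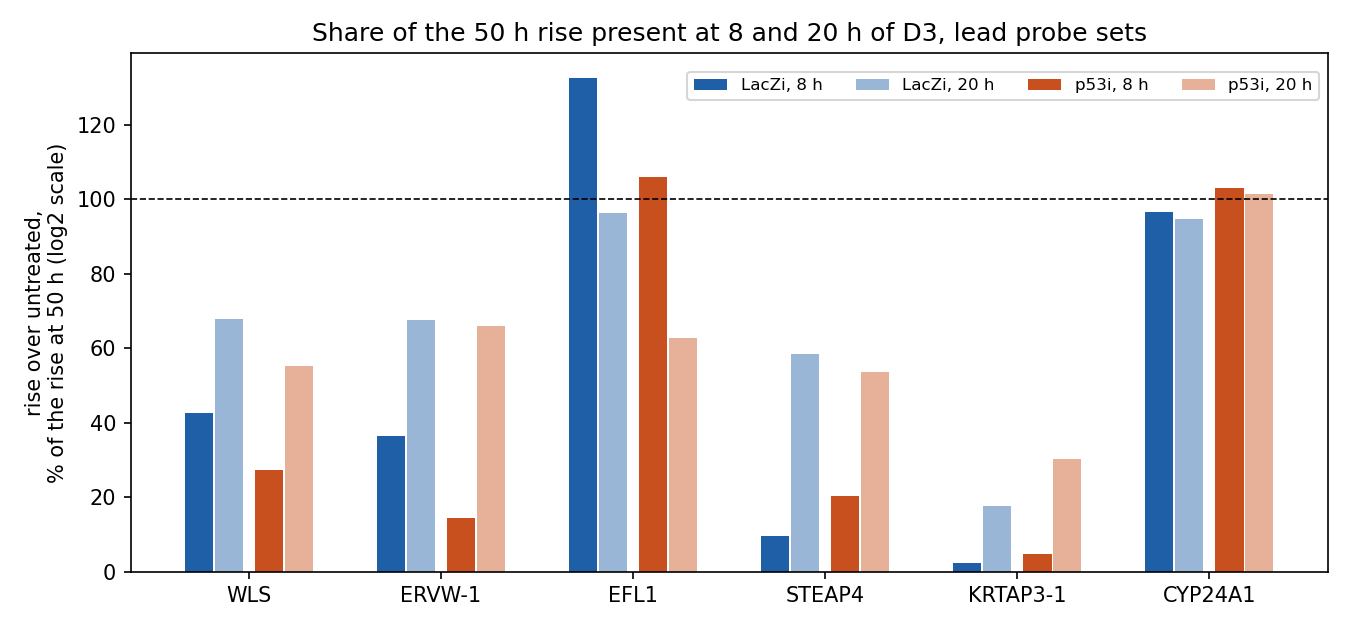
Bars give the log2(signal + 16) rise over the untreated mean at 8 h and at 20 h as a percent of the rise at 50 h, for each siRNA; every bar compares single D3 arrays and carries no error. The 8 h bar runs from 2.47% for KRTAP3-1 to 133% for EFL1 in LacZi cells, and the order of the other genes between them is STEAP4, ERVW-1, WLS in LacZi and ERVW-1, STEAP4, WLS in p53i cells.

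Averaged over the 3 times and both siRNAs, the D3 level exceeded the untreated level by 1.53 ± 0.21 (log2, SE) for WLS, 1.81 ± 0.23 for ERVW-1, 0.82 ± 0.11 for EFL1, 0.87 ± 0.11 for STEAP4 and 1.23 ± 0.23 for KRTAP3-1. These are the differences behind the choice of the genes. Of the 9 probe sets, 7 passed the filter on low signals, and in 4 of these 7 all 6 D3 arrays lay above all 4 untreated arrays, as did 1.81% of the 22032 probe sets tested. The choice of the genes used that contrast, so nothing is read from this count. Among all probe sets tested, 1.25% were called higher and 1.23% lower with D3. These are whole-culture RNA samples, in which fewer cells with the transcript and less transcript per cell cannot be told apart.

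From 8 to 50 h of D3 the levels of 4 of the 5 genes went up with both siRNAs and that of EFL1 did not. The fitted step was 2.81 ± 0.36 (log2, SE, 95% interval 2.03 to 3.59) for KRTAP3-1, 1.99 ± 0.36 for ERVW-1, 1.44 ± 0.32 for WLS and 1.30 ± 0.16 (0.94 to 1.66) for STEAP4. For EFL1 it was -0.17 ± 0.16 (95% interval -0.53 to 0.18), which holds a small fall or rise. In the fit over all probe sets, limma with Benjamini-Hochberg adjustment called 6 of 22032, or 0.0272%, with 1890 at an unadjusted p under 0.05. The bright STEAP4 probe set and that of KRTAP3-1 were 2 of the 6. Nothing is read from this count, because the choice of the genes may have used the 50 h level and KRTAP3-1 entered the fit only through its 50 h arrays.

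With any single array left out, the STEAP4 step lay between 1.21 and 1.39, the ERVW-1 step between 1.50 and 2.49, the WLS step between 1.04 and 1.84 and the EFL1 step between -0.32 and -0.02. The KRTAP3-1 step lay between 2.71 and 2.91 where the probe set passed the filter, which it did not without either 50 h array.

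Between 8 and 20 h no probe set (0%) was called by limma, with 706 at an unadjusted p under 0.05. The differences were 1.07 for ERVW-1, 0.63 for STEAP4, 0.60 for WLS, 0.57 for KRTAP3-1 and -0.32 for EFL1. In signal order, 8 h was below 20 h and 20 h below 50 h with both siRNAs for 4 of the 7 member probe sets, the brightest of WLS, ERVW-1, STEAP4 and KRTAP3-1, against 5.52% of all probe sets tested. Nothing is read from this count either, because it uses the 50 h level and includes KRTAP3-1.

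**Figure D3:**
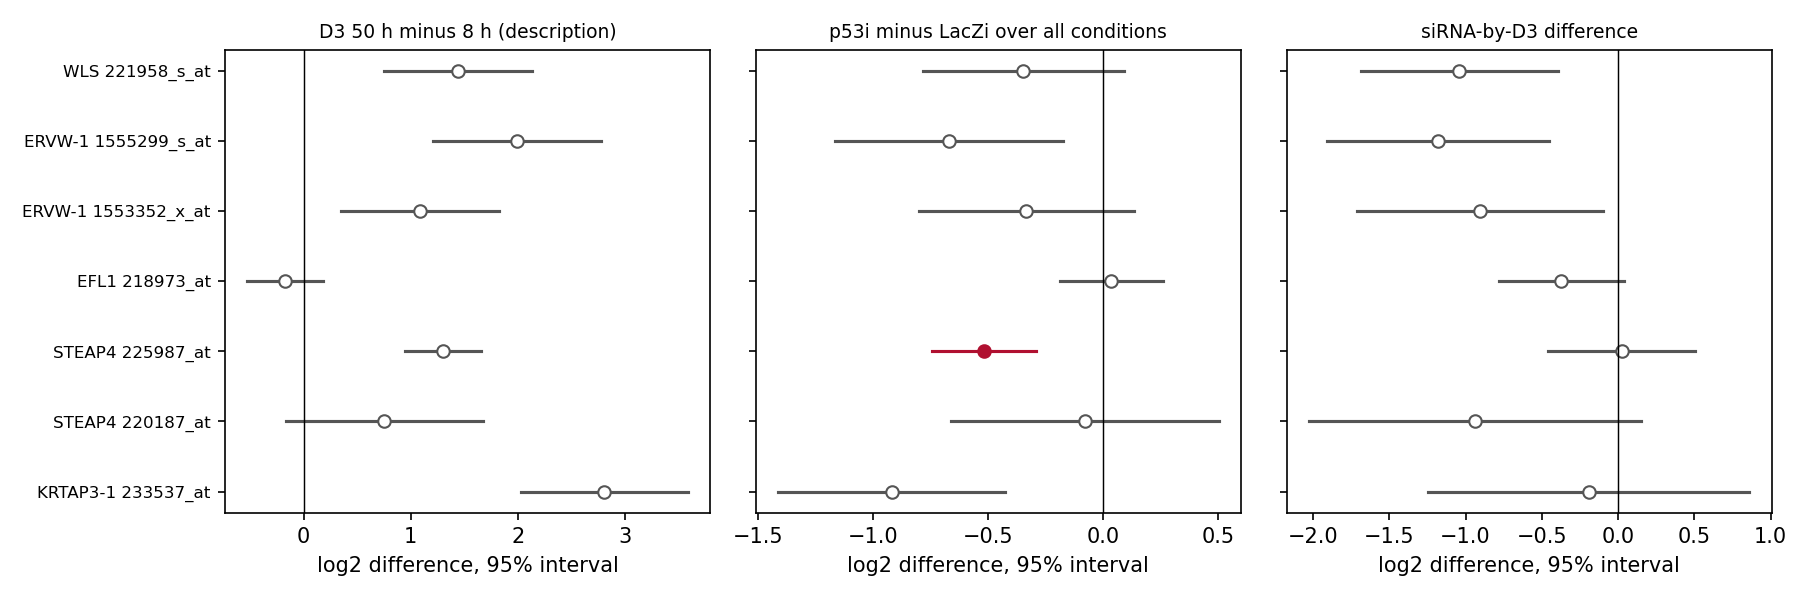
Points give the fitted log2 difference and bars its 95% interval for the 7 member probe sets that passed the filter, in 3 contrasts; filled red points have a limma adjusted p under 0.05 over all 22032 probe sets. The contrast of 50 h minus 8 h and the KRTAP3-1 values are drawn as descriptions, with open points whatever their p; STEAP4 (225987_at) is filled for p53i minus LacZi (-0.52), and no point is filled for the siRNA-by-D3 difference.

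STEAP4 was lower with the p53 siRNA. Over all conditions the bright probe set (225987_at) was lower in p53i than in LacZi cells by -0.52 ± 0.10 (log2, SE, 95% interval -0.74 to -0.29, limma adjusted p = 0.0220). This contrast called 841 probe sets, 3.82% of those tested, of which 409 (1.86%) were lower in p53i. The STEAP4 difference was of like size with and without hormone, at -0.53 in untreated cells and -0.37, -0.61 and -0.54 at 8, 20 and 50 h, lower in p53i in 4 of 4 conditions. ERVW-1 (-0.67 ± 0.23, adjusted p = 0.121), WLS (-0.35 ± 0.20, adjusted p = 0.361) and EFL1 (0.04 ± 0.10, adjusted p = 0.880) were not called. The error of this contrast also holds any change of the siRNA difference between conditions.

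KRTAP3-1 differed by -0.92 ± 0.23 (-1.41 to -0.43, limma adjusted p = 0.0457), a value near background that is given as a description. All its untreated and 8 h signals and the p53i signal at 20 h lay below the filter of 35.4, and at 50 h, where both siRNAs were above it, p53i was lower by -1.60. The KRTAP3-1 call was kept in 3 of 16 alternatives, and lost with quantile normalization (adjusted p = 0.0513), median centring (0.0639), an offset of 64 (0.0749), no filter (0.105) and no intensity trend (0.0588).

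Of the 8 luminal markers that passed the filter, 3 were called higher in p53i cells, KRT8 by 0.42, GRB7 by 0.38 and KRT7 by 0.32. Over all probe sets tested, 3.82% were called in either direction, of which 1.86% were lower in p53i and the rest higher. The median of the marker list was 0.26. The part of these marker differences in the siRNA differences was not tested. The ACTB 3'/5' ratio had the higher median in p53i arrays as given above (6.12 against 4.60), and with that ratio in the model the STEAP4 difference was -0.33 (adjusted p = 0.202, and 0.0952 for the main difference with no intensity trend) and the KRTAP3-1 difference -0.89 (adjusted p = 0.248). The STEAP4 call was lost without untreated LacZi replicate 1 or any of the 6 D3 arrays (adjusted p 0.0509 to 0.105), and the KRTAP3-1 call without either untreated LacZi array, untreated p53i replicate 2 or any 8 or 20 h array (0.0618 to 0.115), while without either 50 h array KRTAP3-1 fell below the filter.

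For WLS and ERVW-1 the p53i level lay below the LacZi level at each D3 time but not in untreated cells. In untreated cells WLS was 0.28 higher and ERVW-1 0.04 higher in p53i, whereas at 8, 20 and 50 h WLS was lower in p53i by -0.52, -0.79 and -0.98 and ERVW-1 by -0.96, -1.01 and -1.46. The mean D3 difference was 2.05 ± 0.21 (SE) in LacZi and 1.01 ± 0.21 in p53i cells for WLS, and 2.40 ± 0.23 and 1.22 ± 0.23 for ERVW-1. The siRNA-by-D3 difference, p53i minus LacZi, was -1.04 ± 0.29 (95% interval -1.68 to -0.40, unadjusted p = 0.00445) for WLS and -1.18 ± 0.33 (-1.91 to -0.45, unadjusted p = 0.00437) for ERVW-1 by limma. Neither passed adjustment over all probe sets (adjusted p = 0.668 for both). No probe set tested (0%) was called in this contrast by limma, 1325 having an unadjusted p under 0.05, so a smaller response in p53i cells was not established for these genes.

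The bright STEAP4 probe set showed next to no such difference in its D3 response (0.02 ± 0.22, 95% interval -0.46 to 0.50). That interval still allows a difference of about the size of its siRNA effect. The second STEAP4 probe set (220187_at) differed by -0.94 ± 0.50 (-2.03 to 0.15). EFL1 differed by -0.37 ± 0.19 (-0.78 to 0.04) and KRTAP3-1 by -0.19 ± 0.48 (-1.25 to 0.86). None of these was past the threshold. The LacZi array was above the p53i array at all 3 D3 times in 5 of the 7 member probe sets, against 21.4% of probe sets tested. Nothing is read from this count. It uses the D3 arrays behind the choice of the genes, and it includes KRTAP3-1 and both probe sets of ERVW-1. The step from 8 to 50 h also gave no call for a difference between siRNAs. In p53i minus LacZi it was -0.46 ± 0.49 for WLS, -0.50 ± 0.56 for ERVW-1, 0.26 ± 0.34 for EFL1, -0.17 ± 0.40 for STEAP4 and -0.83 ± 0.71 for KRTAP3-1, in a fit that takes the single D3 arrays to vary like the untreated duplicates. No probe set (0%) was called there by limma, with 532 at an unadjusted p under 0.05.

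The other 4 probe sets of these genes were dimmer. The second ERVW-1 probe set (1553352_x_at) read 35.3 and 45.5 in untreated LacZi cells and 121, 194 and 376 at 8, 20 and 50 h, and 53.7 and 44.6 and then 114, 84.2 and 189 in p53i cells. It differed from the first at p53i 8 h, where its rise of 1.00 compared with 0.29, and at p53i 20 h, where it dipped. Its 50 h minus 8 h difference was 1.09 ± 0.34 and its siRNA-by-D3 difference -0.90 ± 0.37 (adjusted p = 0.807). The suffixes of both ERVW-1 probe sets mark probes that can match several transcripts, and the gene belongs to a family of related retroviral copies, so its signals may include other copies.

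The second STEAP4 probe set (220187_at) read 12.9 and 22.3 in untreated LacZi cells and 52.6, 69.7 and 75.4 with D3, and 30.4 and 30.5 and then 33.2, 24.5 and 89.0 in p53i cells. It disagreed with the bright probe set over onset, being 1.05 above untreated at 8 h in LacZi cells, and over siRNA, with a p53i minus LacZi difference of -0.08 (adjusted p = 0.900). Its 50 h minus 8 h difference was 0.75 ± 0.42. The mean D3 difference was 1.29 in LacZi and 0.35 in p53i cells. Its siRNA-by-D3 difference was thus -0.94 ± 0.50 (limma adjusted p = 0.859), unlike that of the bright probe set. The STEAP4 siRNA call therefore belongs to 225987_at alone.

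The remaining WLS probe sets, 228949_at and 228950_s_at, did not pass the filter. The first read 19.9 and 2.61 and then 30.8, 55.1 and 82.7 in LacZi cells, and 17.6 and 26.1 and then 3.92, 36.1 and 64.2 in p53i cells. The other read 11.1 and 4.39 and then 25.8, 54.7 and 93.6 in LacZi cells, and 31.2 and 3.40 and then 6.47, 29.1 and 27.5 in p53i cells. In LacZi cells both climbed at each step as the bright WLS probe set did, and in p53i cells both were low at 8 h.

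**Figure D4:**
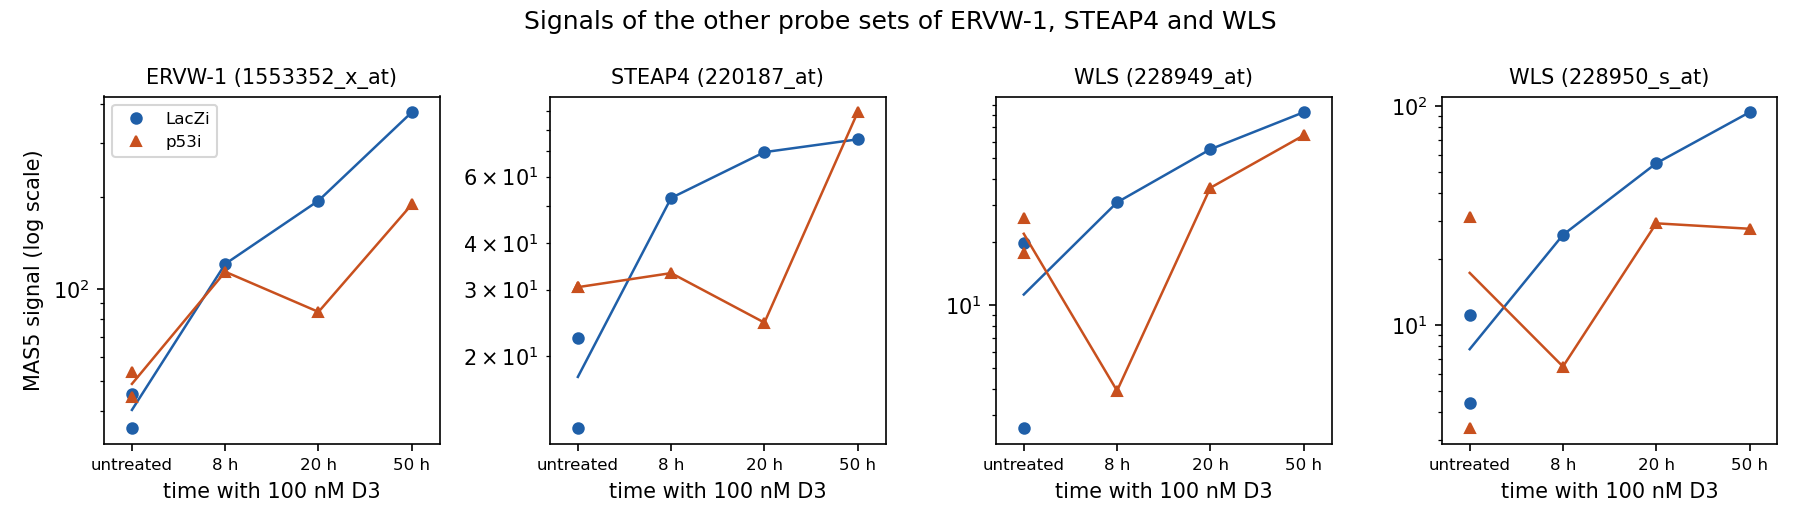
MAS5 signal (log axis) of the 4 dimmer probe sets of ERVW-1, STEAP4 and WLS against time with 100 nM D3, 1 point per array, circles for LacZi and triangles for p53i; lines start at the mean of the 2 untreated arrays. The LacZi lines climb at every step, while the p53i lines dip at 8 or 20 h, ERVW-1 to 84.2 at 20 h and the WLS probe sets to 3.92 and 6.47 at 8 h.

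The probe sets most like each member over the 10 arrays, by Pearson's r of log2(signal + 16), give the pattern a wider frame. WLS and ERVW-1 were each other's closest match (r = 0.984). WLS was followed by TM7SF2, a sterol reductase gene (0.973), and SLC26A2, a sulfate transporter gene (0.969), and ERVW-1 by SULT2B1, a sterol sulfotransferase gene (0.980), and SH3BGRL3 (0.975). TM7SF2 ran from 354 to 466 in untreated and from 631 to 2221 in D3 arrays. STEAP4 was closest to another SLC26A2 probe set (0.977), DENND4C (0.968) and SGPP2, a sphingosine phosphatase gene (0.965). EFL1 was closest to ETS2, a transcription factor gene (0.954, signals 264 to 436 untreated and 701 to 793 with D3), VRK3 (0.946) and RAB11FIP1 (0.941). KRTAP3-1 was closest to COL27A1, a collagen gene (0.951), PRDM1, a transcriptional repressor gene (0.948), and BCL2L11, which encodes the pro-apoptotic BIM (0.936). Such correlations rest on arrays that share hormone, time and siRNA, and these genes were found by searching all probe sets. Within the 6 D3 arrays alone, r among WLS, ERVW-1, STEAP4 and KRTAP3-1 ran from 0.923 to 0.990, while EFL1 ran from -0.25 to -0.10 with them.

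Partners of these genes were followed in lists that were chosen with earlier results of these data known. Over all probe sets tested, 1.25% were called higher and 1.23% lower with D3, and 3.82% were called between the siRNAs. These shares apply to each list below, and nothing is read from the list counts. Of 51 Wnt secretion and signalling genes, 46 had a probe set and 32 passed the filter, and none was called higher or lower with D3 (median 0.04, against 0.0050 over all probe sets) or between the siRNAs. The nearest to the threshold between the siRNAs was the ligand gene WNT5A, named for that value, at -0.38 ± 0.10 (limma adjusted p = 0.0507). The list holds the Wnt ligands WLS carries, the Frizzled and LRP receptors and the retromer subunits that recycle WLS, such as VPS35 (0.04). Of 12 retroviral envelope genes, envelope receptors and the trophoblast factor GCM1, 5 of the 10 measured passed the filter, none was called for D3 or siRNA, and the median was 0.12. The syncytin-1 receptor gene SLC1A5, named for its role, differed by 0.18 ± 0.09 (adjusted p = 0.363), and the envelope gene ERVFRD-1 (syncytin-2) stayed at or below 3.38 on all arrays.

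Trophoblast markers, the cells in which ERVW-1 is best known, summed to between 357 and 454 in untreated and between 338 and 667 in D3 arrays. Of the 9 measured, 4 passed the filter and 1 was called, PSG1, a pregnancy-specific glycoprotein gene, which rose with D3 by 1.12 ± 0.26 (limma adjusted p = 0.0453). Its signals were 11.0 to 55.1 untreated and 9.66 to 173 with D3, so the groups overlapped, and the call was kept without untreated p53i replicate 2 and lost without any of the other 9 arrays (adjusted p up to 0.145). It was also lost with quantile normalization (0.0599), median centring (0.0522), no offset (0.0718), no filter (0.104) and no intensity trend (0.0920), being kept in 5 of 19 alternatives. CGA differed by -0.08. Whether such markers bear on the ERVW-1 signal was not tested.

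Of 18 genes for late maturation of the large ribosomal subunit, the step EFL1 serves, all 15 measured passed the filter, none was called higher with D3 and 1 was called lower, with a list median of 0.0049. The gene was RSL24D1, a biogenesis factor that holds the place of a ribosomal protein, which fell by 0.45 ± 0.10 (limma adjusted p = 0.0346), with signals of 1350 to 1650 untreated and 819 to 1330 with D3. That call was kept without replicate 2 of either untreated pair or without the LacZi 50 h array, and lost without any of the other 7 arrays (adjusted p up to 0.120), with no filter (0.0572) or with no intensity trend (0.137). EIF6, which EFL1 helps to release, differed by -0.16 and EEF2, the elongation factor EFL1 resembles, by 0.28. None of the 15 was called between the siRNAs, the nearest to the threshold being the export adaptor gene NMD3, named for that value, at 0.27 ± 0.07 (adjusted p = 0.0568).

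The iron and copper genes around STEAP4 held D3 calls in both directions. Of 19 listed, 17 were measured, 11 passed the filter, 2 were called higher with D3 and 1 lower, with a list median of 0.25. Over all probe sets tested, 1.25% were called higher and 1.23% lower. The lists were chosen with earlier results of these data known, so nothing is read from this count. SLC31A1, the copper importer gene, rose by 0.90 ± 0.13 (limma adjusted p = 0.00572), with signals of 587 to 767 untreated and 760 to 1965 with D3, a range that begins just inside the untreated one. CP, which encodes the ferroxidase ceruloplasmin, rose by 0.96 ± 0.20 (adjusted p = 0.0284), with signals of 25.6 to 39.8 untreated and 50.0 to 137 with D3 that did not overlap. The untreated CP signals lay around the filter of 35.4 and all its D3 signals lay above it. SLC39A14, an importer of zinc and iron, fell by 0.50 ± 0.10 (adjusted p = 0.0235), with signals of 395 to 432 untreated and 244 to 340 with D3. The SLC31A1 call was kept whichever array was left out and lost with no intensity trend (adjusted p = 0.0636), while the CP and SLC39A14 calls were kept without replicate 2 of either untreated pair, CP also without the LacZi 20 h array, and lost without any other array (adjusted p up to 0.105 for both). CP was also lost with no filter (0.0791) and SLC39A14 with no intensity trend (0.0708).

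Between the siRNAs SLC40A1, which encodes the iron exporter ferroportin, was higher in p53i cells by 1.29 ± 0.13 (limma adjusted p = 0.000588), the opposite direction to STEAP4, and STEAP3, the family's endosomal reductase, was lower by -0.35 ± 0.08 (adjusted p = 0.0301). The SLC40A1 call was kept in all 20 alternatives run. The STEAP3 call was kept without either untreated p53i array and lost without any of the other 8 arrays (adjusted p up to 0.131), with the ACTB ratio in the model (0.115), with median centring (0.103) and with no intensity trend (0.104). The other STEAP genes STEAP1, STEAP1B and STEAP2 did not pass the filter.

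**Figure D5:**
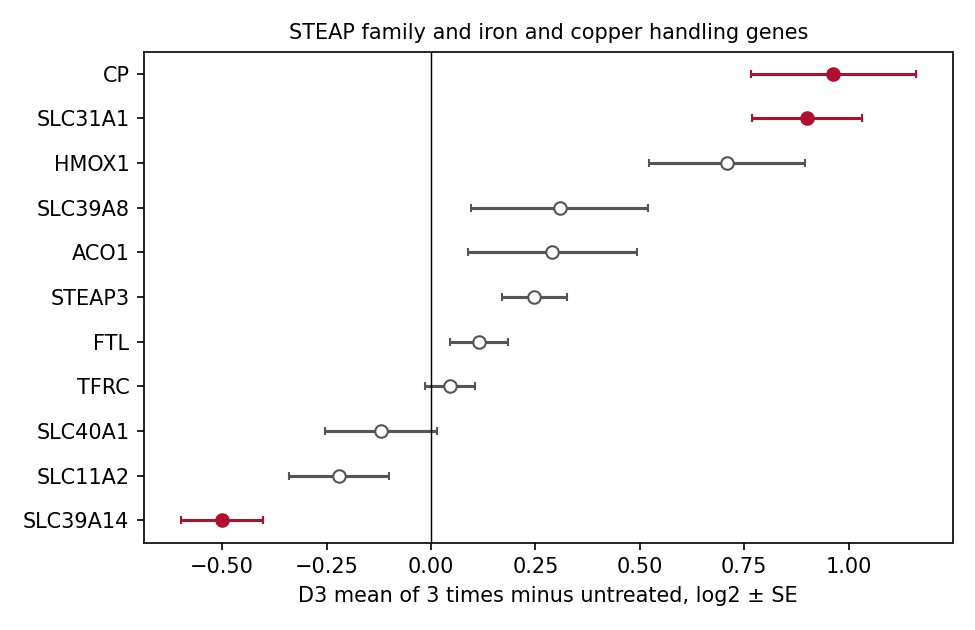
Points give the fitted D3-minus-untreated difference (log2, mean of 3 times) and bars its SE for the 11 iron and copper genes around STEAP4 that passed the filter; filled red points have a limma adjusted p under 0.05 over all 22032 probe sets. CP (0.96) and SLC31A1 (0.90) are filled to the right of 0 and SLC39A14 (-0.50) to the left.

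Most hair genes stayed below the filter. Of 30 hair keratins, keratin-associated proteins and hair-shaft factors, 25 were measured, 4 passed the filter and the list's median signal ran from 10.9 to 25.3. The call among them was downward. HOXC13, a transcription factor of the hair shaft that controls hair keratin genes, fell with D3 by 0.75 ± 0.13 (limma adjusted p = 0.0160), with signals of 241 to 341 untreated and 134 to 195 with D3, a call lost without either 20 h array, the LacZi 8 h array or the p53i 50 h array (adjusted p up to 0.0618) or with no intensity trend (0.0551). The nearest family members on chromosome 17, KRTAP3-2 and KRTAP3-3, did not pass the filter, at 3.62 to 37.0 and 2.00 to 20.3 untreated and 6.11 to 39.9 and 9.54 to 62.1 with D3.

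Of the 3 nearest measured genes on each side of each member, 30 in all, 13 passed the filter and none of these was called with D3; the other 17, which include all 6 neighbours of KRTAP3-1, were not tested. Among the 13 was GATAD1, whose coordinates overlap ERVW-1 and which ran from 266 to 385 untreated and from 358 to 473 with D3 (0.33 ± 0.10, adjusted p = 0.117). SAXO2, the close neighbour of EFL1, did not pass the filter and stayed between 0.561 and 9.13 on all arrays. SRI, beside STEAP4, differed by -0.34 (adjusted p = 0.105). For the siRNAs 1 neighbour was called, SAMD9, which lies 621572 bases from ERVW-1 and was higher in p53i by 1.58 ± 0.27 (limma adjusted p = 0.0104). The call was lost without either 20 h array (adjusted p up to 0.0666) and with the ACTB ratio in the model (0.133). SAMD9 signals ran from 4.88 to 110 untreated and from 12.5 to 126 with D3, so some lay below the filter of 35.4. The difference ran from 0.88 to 2.38 over the alternatives.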

How the data were processed

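Total RNA of 10 SKBR3 samples was hybridised to Affymetrix HG-U133 Plus 2 arrays from 6 ug labelled per sample. The deposited values are linear MAS5 intensity signals per probe set, per the submitters' processing notes, which name MAS5; the release is not stated there. Each array's trimmed mean is about 200, so arrays were not rescaled.

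Gene names came from the array's annotation table. Of 54675 probe sets, 41097 carry 1 symbol, 1801 several and 11777 none, and the last 2 kinds were not used. Signals were taken as log2(signal + 16), which understates changes of dim probe sets. The upper 50% by mean (signal above 35.4) left 22032 for limma 3.58.1 in R 4.3.3 (lmFit, eBayes with an intensity trend, two-sided, Benjamini-Hochberg, threshold 0.05), tested on simulated data. The main contrasts came from siRNA plus D3 time as additive factors. That fit leaves 5 residual degrees of freedom, against 2 in a fit of 8 group means. Its error therefore also holds changes of the siRNA difference between conditions. A siRNA-by-D3 term and the fit of 8 group means gave the differences between siRNAs in the D3 response.

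The genes and lists were chosen with earlier results of these data known. Named besides them are list genes past the threshold (up to 4 per list), the 3 nearest measured genes on each side, the 3 most correlated probe sets and CYP24A1. Genes named for their role, signal or place are no test of a list. Where a gene has several probe sets, that with the highest mean signal leads. The siRNA's target transcript was not analysed here. Alternatives changed normalization, offset, filter, probe set choice, variance trend, replicate block, an RNA-integrity covariate and single arrays.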

Additional observations from a re-analysis of the deposited data

How the results depend on the processing

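No value reversed direction past its threshold. The 8 to 50 h contrast called 6 probe sets, of which 2 were of the 5 genes (STEAP4 and KRTAP3-1, as a description); it called 3 with no filter, 3 in the upper 25% of probe sets, 16 with 1 probe set per gene and 2 with no intensity trend, and 1 member with no offset, no filter, the upper 25% or no trend. The siRNA contrast called 841 (3.82% of probe sets tested), of which 2 were members, STEAP4 and, as a description only, KRTAP3-1. It called 398 with no filter, 82 with no trend and 59 with the ACTB ratio as covariate. It called 1 member with quantile normalization, median centring, no offset, an offset of 64, no filter or the upper 25%. With no trend or the covariate it called 0 members. Where 1 member was called it was STEAP4, except for KRTAP3-1 in the 8 to 50 h contrast with no trend; KRTAP3-1 is below the filter with no offset and in the upper 25%, and its siRNA difference with an offset of 64 was -0.53. The D3 contrast called 548, against 284 with no filter, 97 with no trend and 882 with the covariate. Leaving out each array in turn gave 0 to 17 calls (members 0 to 2) for 8 to 50 h, 0 to 1 for 8 to 20 h (1 without the p53i 8 h array), 98 to 1200 (members 0 to 2) for siRNA, 0 to 199 for the siRNA-by-D3 difference (199 without untreated p53i replicate 1, no member among them) and 103 to 1087 for D3; the 8 to 50 h step difference has no value without an 8 or 50 h array.

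The untreated arrays share replicate numbers across siRNAs, but nothing in the labels ties the numbers, and the replicate differences of the 2 siRNAs correlated with r = 0.146 over 22032 probe sets, from 2 pairs only. With the replicate number as a block, 35 probe sets were called for 8 to 50 h, 1508 for siRNA, 1032 for D3 and 1 for the step difference. The same 2 members were called in the 8 to 50 h and siRNA contrasts. For 8 to 50 h both are descriptions, and for siRNA KRTAP3-1 is. The untreated pairs alone give the spread of a condition, and dim probe sets such as KRTAP3-1 before 50 h lie near background, which limits their low values.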
